A study of Mus musculus with 36 samples.

Results

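The lymphoid-primed regions of MPP4 and CLP are stretches of accessible chromatin that were marked by a peak in the 2 lymphoid-side progenitor fractions of mouse bone marrow and in neither the stem cells nor the myeloid and erythroid progenitors. They were chosen by peak calls alone. The peaks of all 36 ATAC-seq libraries were joined wherever they shared 1 bp or more, which gave 105005 regions, and a region was kept when at least 2 of 4 MPP4 libraries and at least 2 of 4 CLP libraries had a peak in it while none of the 8 HSC, 4 GMP and 4 MEP libraries did. This left 402 regions, 0.383% of the catalogue. The calls in MPP1, MPP2 and MPP3 were not used, nor were the age of the mice, the height of the peaks, the position of a region or its sequence.

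ATAC-seq reads out open chromatin through a transposase that inserts sequencing adapters where DNA is not covered by nucleosomes. The study sorted 8 fractions from pooled bone marrow of female C57BL/6 mice that were 10 weeks old (young) or 20 months old (aged), with 20000 cells per library, to ask how accessibility changes with age along differentiation. HSCs had 4 libraries per age and each other fraction had 2. The labels name no transgene and no treatment. MPP4 was sorted as cells that were IL-7- and Lin-, carried Sca-1, c-kit, CD34, CD48 and Flt3, and lacked CD150. CLPs were IL-7+ Lin- cells with low Sca-1 and low c-kit. The labels write IL-7, and the antibody named in the study's methods is against the IL-7 receptor alpha chain (CD127). Among the fractions used for comparison, HSCs were Sca-1+ c-kit+ and CD150+ without CD34 and CD48, MPP1 was CD34+ CD150+ CD48-, MPP2 was positive for CD34, CD150 and CD48, and MPP3 was CD34+ CD48+ without CD150, all of them without Flt3, whereas GMPs (FcgR+ CD34+) and MEPs (negative for both) lacked Sca-1. Because marrow was pooled within an age before sorting, replicates of a group may share animals, and the p-values below measure the spread between libraries, which may be technical.

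MPP4 and CLP are successive steps on the route from the stem cell to B and T lymphocytes. Flt3-bearing MPP4 cells retain myeloid potential but lean towards lymphoid fates, and CLPs depend on the IL-7 receptor and have lost most of the myeloid potential. Priming means that regulatory DNA of a lineage opens in progenitors before the genes it serves are fully expressed. Basic helix-loop-helix E proteins such as E2A (Tcf3), which bind E-box sequences, and RUNX factors are known to be required at this step, while C/EBP factors and GATA factors drive the granulocyte-macrophage and the megakaryocyte-erythroid routes.

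Peak lists held 27087 to 40157 peaks per library in HSC, MPP1 to MPP4 and CLP, 52576 to 63288 in GMPs and 9581 to 11041 in MEPs, and a longer list leaves fewer regions without a call. Of 25844 regions called in at least 2 MPP4 and 2 CLP libraries, 1388 had no GMP call, 1314 of these had no MEP call either, and 402 also had no HSC call. The sorted fractions were checked at the promoters of marker genes. The promoter of Il7r, the IL-7 receptor chain, was called in 4 of 4 MPP4 and 4 of 4 CLP libraries, but also in 4 of 4 GMP libraries. The promoter of Elane, a neutrophil protease, was called in 4 of 4 GMP libraries and in no library of another fraction. Of the 11 lymphoid markers checked, 2 (Il7r and Ebf1) had a promoter region in the catalogue, and none of the 11 was the nearest gene of a lymphoid-primed region, so the name refers to where the peaks were called and not to the genes beside them. Young MPP4 replicate 2 stood apart from the other MPP4 libraries. It had a peak in 53.2% of the 915 regions of the myeloid counterpart set, defined by at least 2 of 4 MPP3 and 2 of 4 GMP calls with none in HSC, CLP or MEP, against 25.6%, 26.9% and 31.1% in the other 3. MPP4 calls played no part in defining that set. The MPP3 libraries, which did, were uneven in it. Replicate 2 had a peak in 86.4% (young) and 80.7% (aged) of its regions, and replicate 1 in 41.1% and 30.7%. Aged CLP replicate 1 had the shortest peak list among the CLP and MPP4 libraries, with 27117 peaks.

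The most regularly called of these regions are shown first, since they carry the calls on which the set rests, as the mm10 reference (RefSeq GRCm38, plus strand) over 100 bp on each side of the median summit. Capitals mark the E-boxes CAGCTG and CACCTG and the RUNX motif TGTGGT and the PU.1 motif GAGGAAGT, searched on both strands, so that a match on the minus strand appears as its reverse complement. They are 5 of the first 6 in order of the number of MPP4 and CLP libraries with a call and of their lowest rank within those libraries, and are named by the nearest protein-coding transcription start site. The region not printed is nearest to Tshz1, and its window held both E-boxes but neither the RUNX nor the PU.1 motif.
Wdyhv1 region, chr15:58171445-58171645: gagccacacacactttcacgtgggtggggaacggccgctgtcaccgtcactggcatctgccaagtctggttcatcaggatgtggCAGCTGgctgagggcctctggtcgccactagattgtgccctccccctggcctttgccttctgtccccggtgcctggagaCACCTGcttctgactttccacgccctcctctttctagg
Arnt2 region, chr7:84386613-84386813: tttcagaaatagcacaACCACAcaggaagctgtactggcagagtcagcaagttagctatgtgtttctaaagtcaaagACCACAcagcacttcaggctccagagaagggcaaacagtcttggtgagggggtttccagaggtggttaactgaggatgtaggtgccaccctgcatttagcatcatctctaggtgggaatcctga
Rnf19a region, chr15:36241465-36241665: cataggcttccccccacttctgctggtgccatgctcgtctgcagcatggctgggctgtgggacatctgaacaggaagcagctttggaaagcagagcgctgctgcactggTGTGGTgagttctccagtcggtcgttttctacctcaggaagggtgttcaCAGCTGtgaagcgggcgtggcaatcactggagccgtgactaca
Psd3 region, chr8:67713208-67713408: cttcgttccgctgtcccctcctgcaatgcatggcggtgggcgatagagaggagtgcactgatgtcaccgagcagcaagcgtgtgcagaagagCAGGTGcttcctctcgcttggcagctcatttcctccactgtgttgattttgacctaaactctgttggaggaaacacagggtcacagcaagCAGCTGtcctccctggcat
Ctnnd2 region, chr15:30660824-30661024: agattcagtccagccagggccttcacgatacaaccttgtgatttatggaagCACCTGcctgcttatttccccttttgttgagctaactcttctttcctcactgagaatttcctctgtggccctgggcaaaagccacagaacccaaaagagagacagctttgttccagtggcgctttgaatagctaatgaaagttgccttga

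The 6 best-called regions whose nearest gene belongs to a list of 99 lymphoid genes are shown in the same way, because the results on lymphoid genes turn on them.
Id2 region, chr12:25702452-25702652: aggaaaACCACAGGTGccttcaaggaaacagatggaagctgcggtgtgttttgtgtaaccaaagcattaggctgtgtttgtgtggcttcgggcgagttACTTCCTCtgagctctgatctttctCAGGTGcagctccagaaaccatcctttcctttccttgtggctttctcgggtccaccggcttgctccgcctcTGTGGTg
Gata3 region, chr2:9095419-9095619: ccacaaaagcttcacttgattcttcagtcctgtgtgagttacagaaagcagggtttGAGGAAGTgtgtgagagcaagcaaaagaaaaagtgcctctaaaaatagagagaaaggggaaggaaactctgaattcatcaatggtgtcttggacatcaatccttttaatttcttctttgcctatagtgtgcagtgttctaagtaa
Cd69 region, chr6:129266476-129266676: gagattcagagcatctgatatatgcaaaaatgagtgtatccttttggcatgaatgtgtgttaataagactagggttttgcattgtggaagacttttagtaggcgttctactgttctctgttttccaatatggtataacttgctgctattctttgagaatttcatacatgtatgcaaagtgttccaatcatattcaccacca
Tcf7 region, chr11:52265699-52265899: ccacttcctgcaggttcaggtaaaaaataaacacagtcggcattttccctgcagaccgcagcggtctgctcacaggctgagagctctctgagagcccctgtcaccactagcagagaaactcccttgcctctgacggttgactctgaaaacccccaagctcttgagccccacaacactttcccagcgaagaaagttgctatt
Prdm1 region, chr10:44429572-44429772: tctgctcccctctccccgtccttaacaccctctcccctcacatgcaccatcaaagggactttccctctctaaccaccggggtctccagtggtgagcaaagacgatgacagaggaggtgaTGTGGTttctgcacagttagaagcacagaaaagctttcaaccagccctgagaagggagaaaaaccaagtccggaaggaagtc
Rasgrp1 region, chr2:117461566-117461766: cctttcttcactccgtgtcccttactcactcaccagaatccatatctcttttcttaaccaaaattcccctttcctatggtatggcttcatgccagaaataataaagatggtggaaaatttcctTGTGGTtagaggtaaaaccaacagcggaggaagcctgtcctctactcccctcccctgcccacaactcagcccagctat
Of these 11 windows, 5 held an E-box, 5 a RUNX motif and 2 the PU.1 motif, and the windows near Cd69 and Tcf7 held none of the 4.

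The region with the most regular calls lay 30.1 kb from Wdyhv1, the gene of an N-terminal amidase, between genes on chromosome 15 (chr15:58171320-58171702). The height of a peak is given here as its summit pileup, the number of fragments stacked at the summit. At this region it was 52 and 50 in young MPP4, 36 and 39 in aged MPP4, 60 and 50 in young CLP and 35 and 58 in aged CLP. Its levels in the 2 fractions overlapped, and it was also called in all 12 libraries of MPP1, MPP2 and MPP3, so HSC, GMP and MEP were the only fractions without a call. An intronic region of Arnt2, a basic helix-loop-helix transcription factor gene (chr7:84386415-84387024), was restricted further. It had no call in any MPP1, MPP2 or MPP3 library, with pileups of 30 and 33 in young MPP4, 37 and 38 in aged MPP4, 43 and 39 in young CLP and 38 and 48 in aged CLP. These 8 values lay close together and CLP and MPP4 met at 38. Within the Rnf19a gene, which encodes a ubiquitin ligase, a region overlapping a coding exon (chr15:36241326-36241734) reached 26 and 25 in young MPP4, 22 and 34 in aged MPP4, 26 and 50 in young CLP and 23 and 24 in aged CLP. An intronic region 1.6 kb from the start of Lif, the gene of leukemia inhibitory factor (chr11:4268522-4268919), was called in all 8 libraries at 19 to 37 fragments and in none of the MPP1 to MPP3 libraries. Other regions among the 10 most regular ones were nearest to Tshz1, Psd3, Ctnnd2, D7Ertd443e and Xylt1.

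Across the 8 libraries that the rule drew on, 86 of the 402 regions (21.4%) were called in all 8, 90 in 7, 114 in 6, 72 in 5 and 40 (9.95%) in 4, the minimum. The 40 regions at the minimum had a median pileup of 12.5 fragments in the libraries with a call, against 22.75 for the 86 called everywhere and 16.5 for all 402. Just outside the rule, 251 regions had a single call among the 16 HSC, GMP and MEP libraries, 140 of them in GMP, 110 in HSC and 1 in MEP, with a median pileup of 16.5. A further 270 regions missed the rule by having 1 MPP4 library in place of 2 and 138 by having 1 CLP library. These values chose the set and are given as a description.

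**Figure D1:**
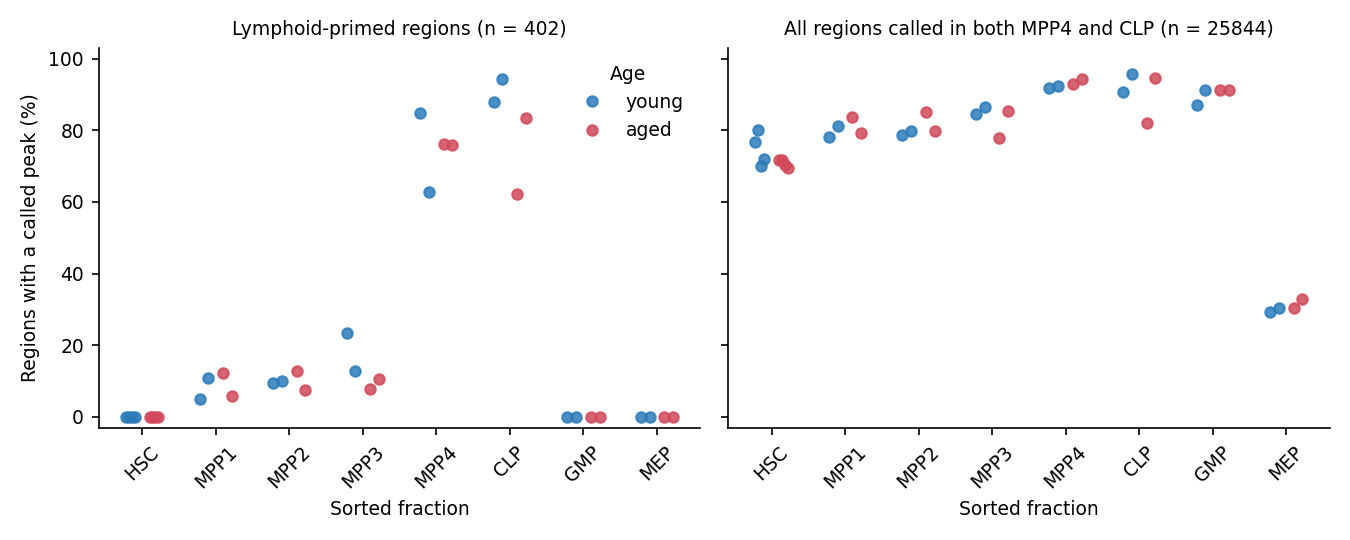
Percent of regions with a called peak (vertical axis) in each library, by sorted fraction (horizontal axis) and age, for the 402 lymphoid-primed regions (left) and for all 25844 regions called in MPP4 and CLP (right). Each point is 1 library. HSC, GMP and MEP sit at 0 on the left by the rule, MPP1 to MPP3 libraries reach at most 23.4% on the left and at least 77.9% on the right.

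MPP1, MPP2 and MPP3 are the fractions that the rule left free. In MPP1 the lymphoid-primed regions had a peak in 8.52% ± 3.58 of cases (mean and SD over 4 libraries), in MPP2 in 9.95% ± 2.26 and in MPP3 in 13.6% ± 6.82, whereas 80.4%, 80.8% and 83.6% of all regions called in MPP4 and CLP had one. The rule removes regions with an HSC, GMP or MEP call, which lowers the share in any fraction whose calls overlap with theirs, so this gap is a description and no test. The libraries of MPP1 called 20 and 44 of the 402 regions in young and 49 and 24 in aged mice. Those of MPP2 called 38 and 40 in young and 52 and 30 in aged mice, and those of MPP3 called 94 and 51 in young and 31 and 43 in aged mice. Young MPP3 replicate 1, with 94, stood above all other MPP1 to MPP3 libraries.

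At least 2 of 4 libraries of a fraction called 32 regions in MPP1, 43 in MPP2 and 54 in MPP3. None of these fractions reached 2 calls at 322 of the 402 regions, and 222 regions had no call at all in the 12 libraries. At the other end, 14 regions were called in at least 2 libraries of all 3 fractions. The regions nearest to Wdyhv1, Tnfaip8, Rtl1, Trio, Dera and Msx2 were called in 11 or 12 of the 12 libraries, and so were open in MPP1, MPP2 and MPP3 alike. Such widely called regions were few, since 24 regions had 6 or more calls. Peaks of the 222 regions without a call were about as high in MPP4 and CLP (median pileup 16.75) as those of the 106 regions with 2 or more calls (17.5).

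The lymphoid-primed regions were mostly distant from promoters. Of 402, 203 (50.5%) were intergenic, 181 (45%) intronic, 8 (1.99%) in coding exons, 3 (0.746%) in 3'-UTRs and 6 (1.49%) at promoters, taken as 1000 bp upstream to 100 bp downstream of a start site. Promoters made up 32.2% of all regions called in MPP4 and CLP, 12.1% of the catalogue, 8.20% of the myeloid counterpart set and 2.06% of the 1552 regions called in CLP alone, and the CLP-only regions thus had a low share as well. The promoter of Xrcc6, the gene of the Ku70 subunit of the end-joining machinery that seals V(D)J breaks, was the only promoter region called in all 8 libraries (chr15:82027749-82028221). Its pileups were 17 and 18 in young MPP4, 10 and 22 in aged MPP4, 27 and 39 in young CLP and 18 and 21 in aged CLP. A promoter region of Cd101, an immunoglobulin superfamily receptor gene, was called in 6 libraries, both young MPP4 libraries and all 4 CLP libraries, with no call in aged MPP4.

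The median distance to the nearest protein-coding start site was 36420 bp, against 5944 bp for all regions called in MPP4 and CLP, 18040 bp for the myeloid counterpart set and 31820 bp for CLP-only regions. The middle of the region was at most 10 kb from a start site in 18.2% of the lymphoid-primed regions and in 55.7% of all regions called in MPP4 and CLP. They were narrower than all regions called in MPP4 and CLP (median 404 bp against 591 bp). They were wider than the myeloid counterpart set (374 bp), the CLP-only regions (316 bp) and the catalogue (336 bp). Their G+C content in the 201-bp window was lower than in all regions called in MPP4 and CLP (50.25% against 55.22%) and near the 49.75% of the whole catalogue. The regions were spread over the genome. The 401 regions with an annotated chromosome were nearest to 385 genes, 16 of which had 2 regions and the others 1, and 11 pairs of regions lay within 50 kb of each other. The 16 genes were Adam6a, Arhgap24, Bcl2l11, Cd82, Ctnnd2, Dad1, Diaph3, Foxn3, Gpam, Olfr1507, Psd3, Rwdd3, Slc39a11, Tnfsf4, Tns3 and Xylt1. There were 2 regions with a median pileup over 100 and with fold enrichments of at most 2.61, one near Gm10720 on chromosome 9 and one on an unplaced contig, and 400 regions were left without them.

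E-box and RUNX motifs were more frequent in these regions than in the other accessible chromatin of the same cells. At least one of the E-boxes CAGCTG and CACCTG was found on either strand within 100 bp of the summit in 211 of 401 windows (52.6%), compared with 26.7% of all regions called in MPP4 and CLP, 24.6% of the catalogue and 18.7% of the myeloid counterpart set. CACCTG alone was found in 33.7% against 12.8% of all regions called in MPP4 and CLP, and CAGCTG in 31.2% against 16.1%. The RUNX motif TGTGGT was found in 48.6% against 24.2% (30.3% of the myeloid counterpart set), and 106 windows (26.4%) held both an E-box and a RUNX motif, against 7.31%. Without promoters the shares were 33.7% against 14% for CACCTG and 31.1% against 18.8% for CAGCTG. For RUNX they were 48.9% against 31.7%, so that its gap was smaller than with promoters. The CLP-only regions had about the same shares, 54.7% with an E-box and 44.0% with RUNX, so the higher shares were not particular to regions called already in MPP4. The sets also differed in G+C content and width, whose part in these shares was not tested. The shares are counts of letters and not of bound factors.

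**Figure D2:**
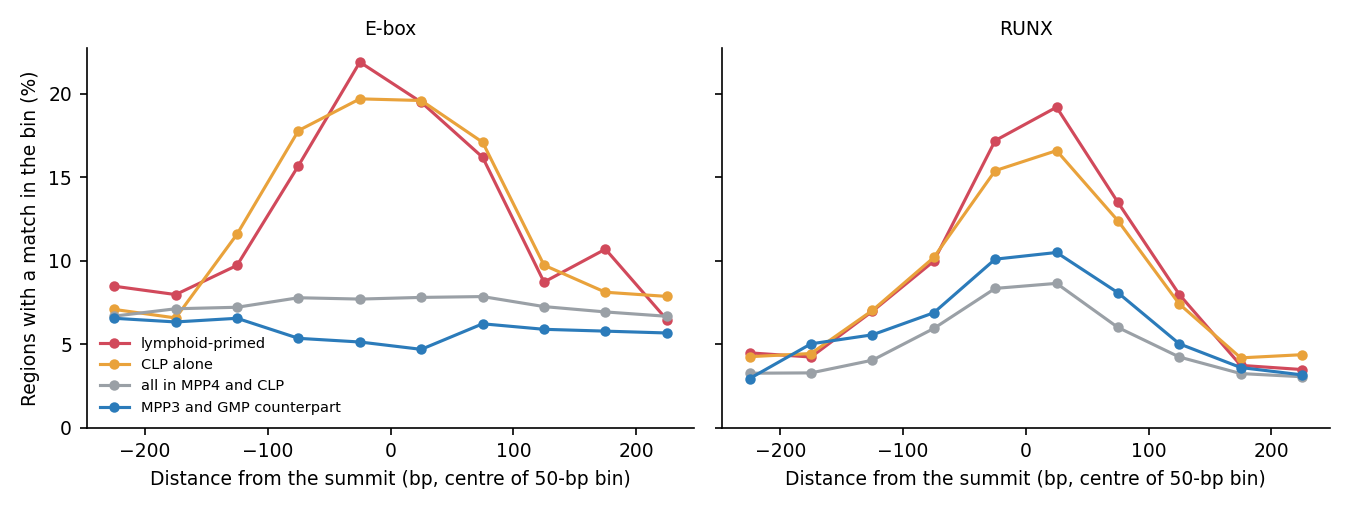
Percent of regions with an E-box (left) or RUNX (right) match in each 50-bp bin (vertical axis) by distance from the peak summit in bp (horizontal axis), for 4 sets of regions. In the lymphoid-primed set E-box matches rise from 8.48% at the left edge to 21.9% beside the summit, while the line of all regions called in MPP4 and CLP stays between 6.68% and 7.86%.

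Both motifs sat at the summits. E-box matches were found in 21.9% and 19.5% of the lymphoid-primed regions in the 50-bp bins on either side of the summit and in 8.48% and 6.48% of them in the outermost bins, 200 to 250 bp away. RUNX matches were found in 17.2% and 19.2% beside the summit and in 4.49% and 3.49% at the edges. In all regions called in MPP4 and CLP the share with either E-box was flat, between 6.68% and 7.86% in every bin, whereas the RUNX share there also peaked at the summit, at 8.65%. Taken apart, CAGCTG rose there from 2.84% and 2.65% at the edges to 4.28% and 4.54% beside the summit. CACCTG fell from 4.0% and 4.12% to 3.55% and 3.43%. The CLP-only regions peaked at the summit like the lymphoid-primed ones, with 19.7% and 19.6% for the E-box and 15.4% and 16.6% for RUNX. In the myeloid counterpart set the E-box share did not rise at the summit (5.14% and 4.70%), but RUNX did, from 2.95% and 3.17% at the edges to 10.1% and 10.5%.

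Motifs of the myeloid and erythroid factors were less frequent than in the myeloid counterpart set and near or below the level of all regions called in MPP4 and CLP. The C/EBP motif TTGCNNAA was found in 4.74% of the lymphoid-primed windows, in 8.0% of all regions called in MPP4 and CLP and in 22.8% of the myeloid counterpart set. The GATA motif AGATAA was found in 6.23%, 5.58% and 14.2% of these sets, and the AP-1 motif TGANTCA in 9.98%, 8.64% and 23.9%. The PU.1 motif GAGGAAGT was about as frequent in the lymphoid-primed windows (8.23%) as in all regions called in MPP4 and CLP (8.29%), the EBF motif CCCNNGGG less frequent (4.24% against 10.0%), and the CTCF motif AGGGGGCG was found in 1 window. Without promoters the PU.1 share was lower than in all regions called in MPP4 and CLP (8.35% against 10.9%). GATA (6.33% against 7.14%), AP-1 (10.1% against 11.2%) and C/EBP (4.56% against 9.5%) then also lay below. The IRF motif AANNGAAA was found in 25.4% of the lymphoid-primed windows and in 39.3% of the CLP-only regions, the largest gap between these sets among the motifs plotted. Rarer motifs with a higher share were HOXA9 TGATTTAT, in 12 windows (2.99% against 0.679%), and MEF2 TATTTNTAG, in 9 windows (2.24% against 0.854%).

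**Figure D3:**
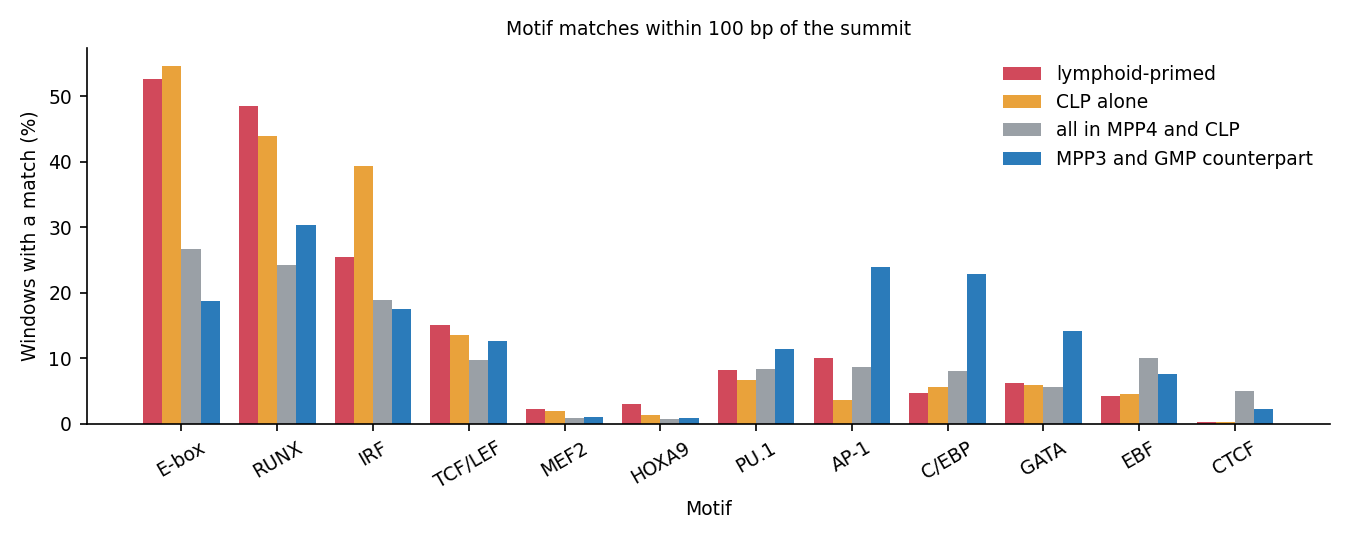
Percent of 201-bp windows with at least 1 match (vertical axis) for the E-box and 11 other motifs (horizontal axis) in the lymphoid-primed regions, CLP-only regions, all regions called in MPP4 and CLP and the MPP3 and GMP counterpart. E-box and RUNX bars of the lymphoid-primed set stand at 52.6% and 48.6%, and the AP-1, C/EBP and GATA bars are highest in the MPP3 and GMP counterpart.

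Within the set, E-box and RUNX shares were higher in the more regularly called regions. An E-box was found in 64.0% of the 86 regions called in all 8 libraries, in 52.2% of the 204 called in 6 or 7 and in 44.6% of the 112 called in 4 or 5. The RUNX shares of these classes were 57%, 50.7% and 38.4%. The GATA motif ran the other way (3.49%, 5.42% and 9.82%), but on only 3, 11 and 11 windows. AP-1 (9.3%, 12.3% and 6.25%), C/EBP (5.81%, 3.94% and 5.36%) and PU.1 (8.14%, 10.3% and 4.46%) showed no such order. The classes also differed in peak height (median pileup 22.75, 16.5 and 14) and width (456, 410.5 and 353.5 bp), whose part in these shares was not tested. Regions with 6 or more calls in MPP1 to MPP3 held an E-box in 10 of 24 cases and RUNX in 6, and regions with no such call held them in 56.6% and 50.2%.

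Which of the 2 fractions had the stronger signal was not used by the rule, and it was compared on the log2 fold enrichment of each peak over its local background with limma. The fit covered the 16970 regions called in all 8 libraries and adjusted p-values over all of them by Benjamini-Hochberg. Of the lymphoid-primed regions, 86 entered it and 316 did not, because they lacked a call in at least 1 library. Fold enrichment was higher in CLP at 21 of the 86 regions (24.4%) at an adjusted p under 0.05, where 4.77% of all tested regions were, and higher in MPP4 at 0 of the 86, where 5.73% of all tested regions were. At an unadjusted p under 0.05, 36 were higher in CLP and 6 in MPP4, and 3910 of all 16970 tested regions reached it in either direction. The log2 difference between CLP and MPP4 ranged from -0.50 to 1.11 over the 86 regions with a median of 0.30, and it was above 0 at 68 of them and at 8211 of all tested regions. The median over all tested regions was -0.01. Regions of the fit that lacked an HSC call but were called in GMP or MEP gave similar values, with 293 of 1124 (26.1%) higher in CLP and a median of 0.23, while of the regions with an HSC call 3.14% were higher in CLP. Higher fold enrichment in CLP thus went with the absence of an HSC call, which the rule requires, and was not particular to the lymphoid-primed regions.

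**Figure D4:**
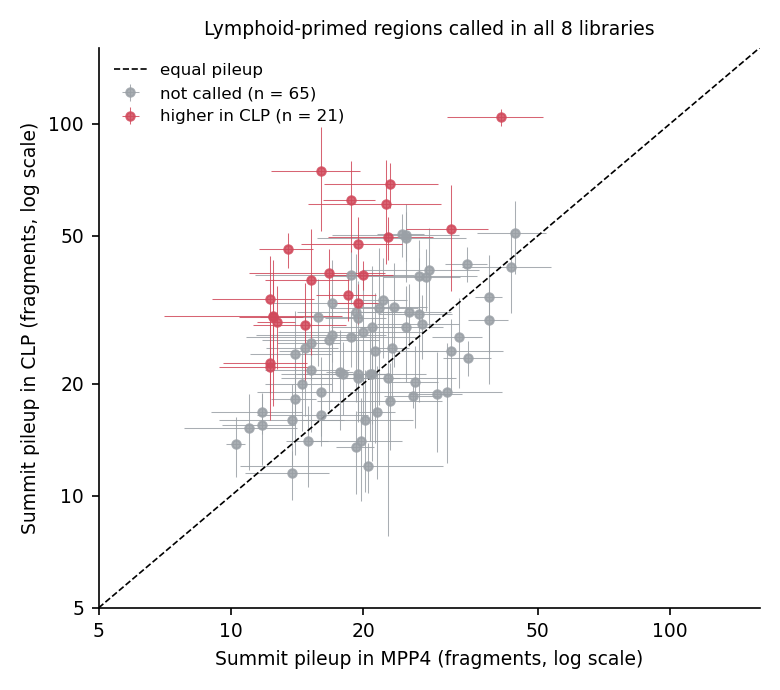
Mean summit pileup in fragments in the 4 CLP libraries (vertical axis, log scale) against that in the 4 MPP4 libraries (horizontal axis, log scale) for the 86 lymphoid-primed regions called in all 8 libraries, with SD bars over libraries. The 21 regions that limma called higher in CLP on fold enrichment all lie above the dashed line of equal pileup.

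Of the 21 regions, 12 were intergenic, 8 intronic and 1 in a coding exon, and 17 of their windows held an E-box, against 38 of the 65 others in the fit. Their log2 differences ran from 0.48 to 1.11, and their mean pileups in CLP, from 22.25 to 104.2 fragments, compare with 12.25 to 41.25 in MPP4. The smallest p belonged to an intergenic region 26.7 kb from Ppm1l, the gene of a protein phosphatase (chr3:69289863-69290548). Its pileups were 20 and 18 in young MPP4, 12 and 14 in aged MPP4, 88 and 94 in young CLP and 42 and 75 in aged CLP. All CLP libraries lay above all MPP4 libraries, and the log2 fold enrichment differed by 1.00 with an SE of 0.14 (limma, adjusted p = 0.000148). A region 63.1 kb from Rfpl4b (chr10:38884614-38885199) had 20 and 15 fragments in young MPP4, 20 and 20 in aged MPP4, 46 and 69 in young CLP and 51 and 83 in aged CLP. Its groups were again fully apart (log2 difference 1.05, SE 0.156, limma adjusted p = 0.000197). A region 123.1 kb from Bmp7, the gene of a bone morphogenetic protein (chr2:172816988-172817493), had 15 and 11 in young MPP4, 13 and 15 in aged MPP4, 50 and 46 in young CLP and 39 and 49 in aged CLP, with a log2 difference of 1.07 (SE 0.16, limma adjusted p = 0.0002). No call was made for it in MPP1, MPP2 or MPP3. The coding-exon region of Psd3, shown above, was the tallest of the 21, with 53, 42, 28 and 42 fragments in young and aged MPP4 and 102, 111, 106 and 98 in young and aged CLP.

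In the opposite direction the smallest p belonged to an intergenic region 25.7 kb from Tmem207 (chr16:26552288-26552656). It had 22 and 18 fragments in young MPP4, 18 and 19 in aged MPP4, 12 and 18 in young CLP and 10 and 14 in aged CLP. The fractions touched at 18, and the log2 difference of -0.50 (SE 0.17) did not pass the threshold (limma adjusted p = 0.0689). An intronic region of Sema4d, a semaphorin gene, differed by -0.49 (SE 0.19, limma adjusted p = 0.117) and one of Tnfaip8 by -0.44 (SE 0.18, limma adjusted p = 0.136). Counted on pileups alone, 22 of the 86 regions (25.6%) had all 4 CLP libraries above all 4 MPP4 libraries, where 4.86% of all tested regions had, and 3 (3.49%) the reverse, where 10.6% of all tested regions had.

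Age was not used by the rule, and the calls were compared first. In CLP, young libraries called 353 and 379 of the 402 regions and aged libraries 250 and 335. The share of young libraries was 91.0% ± 4.57 against 72.8% ± 15 (SD over 2 libraries of each age), without overlap of the ages. The share of all regions called in MPP4 and CLP was 93.2% in young and 88.3% in aged CLP, where the ages overlapped. Without aged CLP replicate 1, the library with the shortest list, the aged share was 83.3%. In MPP4, young libraries called 341 and 253 and aged libraries 306 and 305 (73.9% ± 15.5 and 76.0% ± 0.176). The ages overlapped there, and without young MPP4 replicate 2 the young share was 84.8%, above both aged libraries. In MPP3 the shares were 18% ± 7.56 in young and 9.20% ± 2.11 in aged libraries without overlap, against 85.5% and 81.6% of all regions called in MPP4 and CLP, where the ages overlapped. Without young MPP3 replicate 1 the young share was 12.7% and the aged minus young difference was -3.48 in place of -8.83 percentage points. In MPP1 (7.96% and 9.08%) and MPP2 (9.70% and 10.2%) the ages overlapped. Of all regions called in MPP4 and CLP, young and aged MPP1 libraries called 79.6% and 81.3%, with overlap of the ages. For MPP2 (79.3% and 82.4%) and MPP4 (92.0% and 93.5%) these shares were higher in aged libraries without overlap. With 2 libraries per age no permutation test of one fraction can pass a threshold of 0.05, and none is given. Of the 99 lymphoid-primed regions called in exactly 2 of 4 CLP libraries, 50 (50.5%) were called in both young and in neither aged library and 5 (5.05%) the other way round. Of the 2878 such regions among all called in MPP4 and CLP, 25.2% and 9.62% were, so calls in young libraries alone were the more frequent pattern there too. Of the 138 lymphoid-primed regions called in exactly 2 of 4 MPP4 libraries, 28 (20.3%) were called in young and 35 (25.4%) in aged libraries alone, against 15.8% and 24.6% of 2221 such regions.

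Region by region, the number of aged libraries with a call was tested exactly with the fraction as stratum over the 85292 regions whose calls could differ, 365 of them lymphoid-primed. At an adjusted p under 0.05 the exact test called 0 regions, lymphoid-primed or other. For a lymphoid-primed region with calls in MPP4 and CLP alone, the smallest exact p that 2 libraries per age allow is 0.0556. The 222 regions without a call in MPP1, MPP2 or MPP3 thus could not reach an unadjusted p under 0.05, and for them the test cannot decide. At that limit the exact test named 8 of the 365 (2.19%), 6 with fewer and 2 with more aged calls, where 1.37% of all tested regions were named. Both shares include regions that could not be named. This balance turned when only peaks with a −log10 q of at least 10 counted. Of 341 regions, 1 then had fewer and 3 had more aged calls, where 1.32% of all tested regions were named. Fewer aged than young calls were counted at 180 of the 365 regions (49.3%), more at 104 (28.5%) and as many at 81, whereas over all 85292 tested regions 41.4% had fewer and 41.8% more. The tally includes aged CLP replicate 1, whose part in it was not tested. An intergenic region 279.9 kb from Ascc3 (chr10:50312558-50313069) had a call in 8 young and 2 aged libraries. Its pileups were 67 and 36 in young MPP4, 14 and 18 in aged MPP4 and 17 and 17 in young CLP, and it had no call in aged CLP (exact p = 0.0139, adjusted p = 1.0). A region nearest to Olfr1507 and inside the T-cell receptor alpha and delta locus (chr14:52863144-52863526) had a call in 6 young and 0 aged libraries (exact p = 0.0139), and an intronic region of Alpk2 in 9 young and 3 aged libraries (exact p = 0.0139). In the other direction, an intronic region of Cntn1 (chr15:92134316-92134869) had a call in 2 young and 8 aged libraries (exact p = 0.0208). A region in an intron of Rasa3 (chr8:13617187-13617524, nearest start site 1700029H14Rik) had one in 0 young and 5 aged libraries (exact p = 0.0278), and an intergenic region 49.2 kb from Il1rl1, the gene of the IL-33 receptor, in 0 young and 4 aged libraries (exact p = 0.0556). All 3 had an adjusted p of 1.0 in the exact test.

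Peak strength gave no age difference that passed. Among the 16970 regions of the limma fit, 0 had an adjusted p under 0.05 for aged against young, and 9 of the 86 lymphoid-primed regions (10.5%) had an unadjusted p under 0.05, 5 higher and 4 lower in aged cells, where 5.64% of all tested regions had. Leaving out 1 library moved the count of 9 in both directions. Without aged CLP replicate 1 the share of the 86 was not above that of all tested regions. The median log2 difference of the 86 was -0.04. It ran from -0.133 without young MPP4 replicate 2 to 0.058 without young MPP4 replicate 1. The intronic region of Pcsk5, a proprotein convertase gene (chr19:17650822-17651241), had the smallest p among those lower in aged cells. It had 36 and 24 fragments in young MPP4, 17 and 14 in aged MPP4, 17 and 40 in young CLP and 13 and 13 in aged CLP, so that within each fraction the young libraries lay above the aged ones (log2 difference -0.58, SE 0.175, limma unadjusted p = 0.00325, adjusted p = 0.653). Regions near Stc1, a stanniocalcin gene (log2 difference -0.57), and Hilpda, a lipid droplet protein gene (-0.465), came next. In the other direction, the smallest p values belonged to regions of Tnfaip8 (log2 difference 0.58), with 14 and 12 fragments in young and 34 and 22 in aged MPP4 but 13 and 10 in young and 11 and 14 in aged CLP, of Gbe1, the glycogen branching enzyme gene (0.53), and near Plk2, a polo-like kinase gene (0.40).

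The difference between the age effects of the fractions, tested as an interaction in the same fit, passed at 0 of 16970 regions. At an unadjusted p under 0.05 it named 13 of the 86 (15.1%), where 6.91% of all tested regions were named, and in 12 of the 13 the change with age was lower in CLP than in MPP4. The count depended on the scaling, with 7 of the 86 (and 989 of all tested regions) without centring, 8 (and 1131) after quantile normalization and 9 (and 1113) when centred on the tested regions. Leaving out 1 library also moved the count in both directions, lowest without aged CLP replicate 1 and highest without young MPP4 replicate 1. The median interaction of the 86 was -0.17 relative to that of all tested regions on the log2 scale. Without young MPP4 replicate 2 the median of the 86 was -0.07 in place of -0.25, so its size rests on that library. Without centring of the libraries, the median of all tested regions moved from -0.08 to 0.11.

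Genes of the lymphoid lineage were near few of these regions. Of 99 genes in the lymphoid list, 10 were the nearest gene of a lymphoid-primed region, each of 1 region, which makes 2.49% of the 402. The same list was nearest to 1.20% of all regions called in MPP4 and CLP, 1.33% of the catalogue and 3.16% of CLP-only regions. Genes of the granulocyte and macrophage list and of the megakaryocyte and erythrocyte list were nearest to 1 region each (Itgam and Ank1), or 0.249%, against 0.317% and 0.135% of all regions called in MPP4 and CLP. Those of the stem cell list were nearest to 3 (Mycn, Mecom and Hlf), or 0.746% against 0.24%. A list of 66 transcription factors of lymphoid cells and their relatives was nearest to 5 regions (Id2, Gata3, Mef2a, Tcf7 and Mef2c), or 1.24%, as against 1.23% of all regions called in MPP4 and CLP. Nearest genes were assigned at any distance and name a position, not a target.

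**Figure D5:**
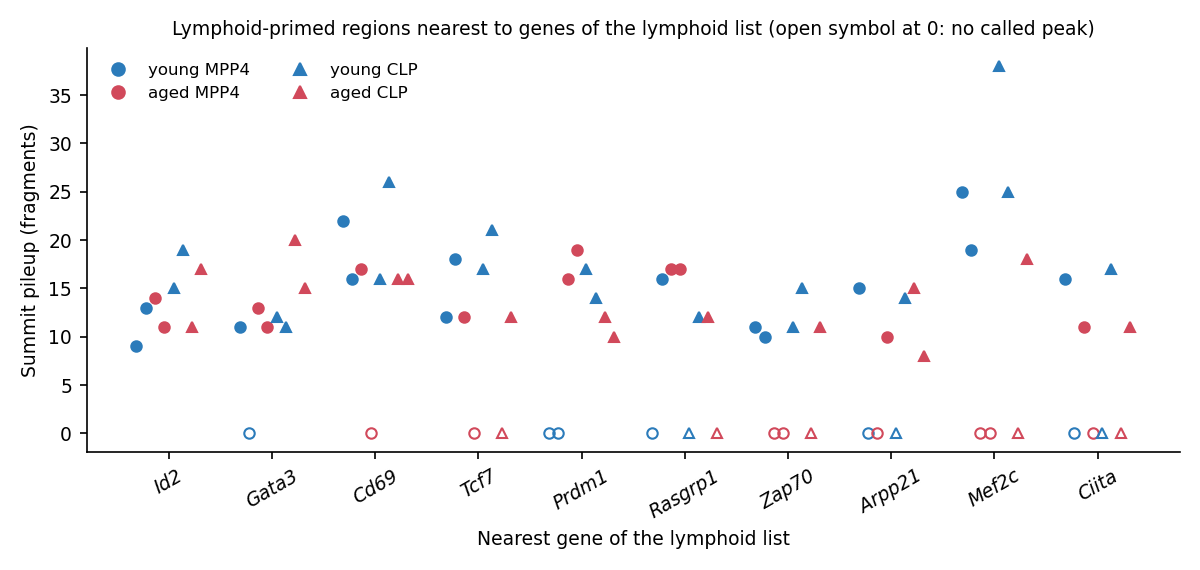
Summit pileup in fragments (vertical axis) of the 10 lymphoid-primed regions nearest to genes of the lymphoid list (horizontal axis) in the 8 MPP4 and CLP libraries. Each symbol is 1 library, open symbols at 0 are libraries without a called peak, and called pileups lie between 8 and 38 fragments.

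The region assigned to Id2, the gene of an inhibitor of E proteins, lay 605.4 kb from its start (chr12:25702355-25702716) and was called in all 8 libraries. Its pileups were 9 and 13 in young MPP4, 14 and 11 in aged MPP4, 15 and 19 in young CLP and 11 and 17 in aged CLP, and the fractions overlapped. As printed above, its window held 2 E-boxes, 2 RUNX motifs and a PU.1 motif at the summit, the most matches of the 11 windows. A region 783.1 kb from Gata3, a transcription factor gene of early T cells (chr2:9095249-9095774), was called in 7 libraries at 11 to 20 fragments, all but young MPP4 replicate 2. An intronic region of Tcf7, which encodes the T-cell factor TCF-1 (chr11:52265643-52265964), was called in all 4 young libraries and in 1 of 2 aged libraries of each fraction. It had 12 and 18 fragments in young MPP4, 12 in aged MPP4 replicate 1, 17 and 21 in young CLP and 12 in aged CLP replicate 2. A region 8.6 kb from Cd69, an early activation receptor gene (chr6:129266288-129267213), was called in 7 libraries at 16 to 26 fragments.

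A region 27.6 kb from Prdm1, the gene of the plasma cell regulator Blimp-1 (chr10:44429437-44429831), had no call in young MPP4. It had 16 and 19 fragments in aged MPP4, 17 and 14 in young CLP and 12 and 10 in aged CLP. The intronic regions of Zap70, a kinase gene of T-cell receptor signalling (chr1:36766603-36767144), and of Mef2c, a transcription factor gene (chr13:83597420-83597845), showed the opposite pattern. Each was called in both young libraries of MPP4 and of CLP, in aged CLP replicate 2 and in neither aged MPP4 library. Mef2c had 25 and 19 fragments in young MPP4, 38 and 25 in young CLP and 18 in aged CLP, and Zap70 had 11 and 10, 11 and 15, and 11. The exact test over all fractions gave p = 0.0833 for both, with an adjusted p of 1.0. The remaining lymphoid genes were Rasgrp1 and Arpp21, each with 5 of 8 calls, and Ciita, the class II transactivator gene, with an intronic region called in 1 library of each of the 4 groups at 11 to 17 fragments. A region 127.7 kb from Mef2a (chr7:67500304-67500844) was called in 7 libraries, with 44, 53, 36 and 62 fragments in young and aged CLP above the 10, 20 and 16 in the MPP4 libraries with a call.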

How the data were processed

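ATAC-seq peak lists of 36 libraries of 8 sorted fractions were used. According to the study's methods and the labels, the authors aligned single 60-base reads to mm10 with Bowtie2, subsampled mapped reads with SAMtools and called peaks in each library by itself with MACS2 2.2.6. Per summit, the authors deposited the fold enrichment over local background, −log10 p-value and −log10 q-value (smallest value 3) and an integer score, which is derived from the q-value and was not used. Read counts were not analysed here. Groups came from the labels.

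From these, summit pileups were recovered from fold enrichment and p-value for 100% of entries (rounding tolerance of 0.005 on −log10 p). The smallest background per base of fragment length was 0.004806 to 0.004811 in every library, as equal depths give. In regions with several summits the highest was used. An absent call is a value under the caller's limit and not an absence of fragments, and calls carry no interval for that. Regions were annotated with GENCODE vM21 (basic), promoter first, and the nearest protein-coding start site was taken. Antigen receptor loci were taken from the same annotation. Windows of 201 bases came from the mm10 reference, with a sequence for 401 of 402 regions. The region without one lies on an unplaced contig.

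Log2 fold enrichment was centred per library on regions called in all 36 libraries and fitted with limma 3.58.1 (R 4.3.3, trend) over 8 MPP4 and CLP libraries, with Benjamini-Hochberg adjustment and a threshold of 0.05. Called libraries were compared by age with an exact conditional test. The count model of the study's methods was not run, since peak lists hold no read counts. The scripts were tested on simulated data. Python 3.11.15, numpy 2.4.6, pandas 2.3.3 and scipy 1.17.1 were used. Named regions were the 10 with the most calls (except 1 that is not reported here), the 3 with the smallest p in each direction of each test, those nearest to genes of the lists and genes with the most regions; the others named in a count were picked after their values were seen. The regions, lists and tests were chosen with earlier results of these data known. Alternatives were stricter q-values, peak coverage of the region, more libraries, equal peak numbers, other scalings, pileup in place of fold enrichment, a smaller motif window, a distance limit, the replicate block and leaving out each library.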

Additional observations from a re-analysis of the deposited data

How the results depend on the processing

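The number of lymphoid-primed regions depended on how a call was counted. It was 716 (286 of them shared with the 402) when only peaks spanning 50% or more of a region counted, 205 with calls in 3 or more of 4 libraries of each fraction and 817 (212 shared) with an equal number of peaks per library other than MEP. Only 125 of the 402 regions were among the 295 kept at a −log10 q of at least 10. Leaving out each of the 36 libraries gave 313 to 451 regions. MPP2 calls rose from 9.95% to 13.9% at the stricter q, 14% with 50% coverage, 12.7% with 3 of 4 libraries and 17.3% with equal peaks, and MPP3 calls from 13.6% to 22% with equal peaks. Leaving out 1 library gave 7.3% to 10.1% for MPP1, 8.96% to 11.7% for MPP2, 10.4% to 15.6% for MPP3 and 0.958% to 1.83% for promoters.

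The count of regions higher in CLP was 32 of 86 on summit pileup (median 0.548), where 1258 of all 16970 tested regions were. It was 4 of 22 at the stricter q (425 of all 11392) and 46 of 295 with missing values left out (1109 of all 24063), where 7 were higher in MPP4 (1454 of all 24063). Leaving out 1 library gave a median of 0.207 to 0.402 and moved the count of regions higher in CLP in both directions. Some of these fits also had regions higher in MPP4. Without young MPP4 replicate 2 the log2 difference was -0.623 at the region of Tmem207 and -0.683 at that of Ctdp1 (seen only here). Without young CLP replicate 2 it was -0.677 at the region of Sema4d. In these fits the lone sample of a group was assumed to vary like the other groups. For age, these settings gave 0 calls and medians of -0.133 to 0.058, and for the interaction 0 calls and -0.397 to -0.068. With the replicate block, 20 were higher in CLP and 0 in MPP4, where 770 and 923 of all 16970 tested regions were. After the group means were subtracted, same-numbered MPP4 and CLP libraries correlated at -0.031 to 0.043 over the tested regions. Such values show no pairing by number but cannot exclude a shared sort or batch.

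The CLP share fell by 7.71 percentage points with age without aged CLP replicate 1 (-7.71), against -18.3 with all libraries, -16.0 with equal peaks and the same regions, and -10.7 with the regions chosen anew from equal peaks, all added after seeing the data. The MPP4 difference reversed to -8.83 without young MPP4 replicate 2, and the MPP3 difference went from -8.83 to -3.48 without young MPP3 replicate 1 and likewise to -3.48 with equal peaks and all libraries, all also added after seeing the data. Regions with an unadjusted p under 0.05 in the exact test of calls were 2 with more and 6 with fewer aged calls. They were 3 and 1 at the stricter q, which turns the balance, 1 and 7 at 50% coverage and 1 and 3 with equal peaks, out of 341, 360 and 360 regions, where 1.32%, 1.35% and 1.64% of all tested regions were named. Within 50 bp of the summit, CAGCTG was found in 19.2%, CACCTG in 20.0%, RUNX in 31.7%, PU.1 in 4.24%, AP-1 in 6.98%, C/EBP in 2.0% and GATA in 2.0%, as against 8.21%, 6.55%, 15.3%, 5.01%, 4.94%, 4.3% and 3.0% of all regions called in MPP4 and CLP. Within 100 kb, the lymphoid list had 6 regions (1.49% against 0.921% of all regions called in MPP4 and CLP), the stem cell list 1 (0.249% against 0.186%) and the transcription factors 2 (0.498% against 0.96%).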

Other observations

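Antigen receptor loci held 6 of the 402 lymphoid-primed regions (1.49%), 2 in the immunoglobulin heavy chain locus and 4 in the T-cell receptor alpha and delta locus. They held 0.263% of all regions called in MPP4 and CLP, 0.515% of the CLP-only regions, 0.328% of the myeloid counterpart set and 0.294% of the catalogue. These loci were looked at after the names of their neighbours, Adam6a, Dad1 and Olfr1507, had each been seen at 2 regions among the nearest genes, so the counts are a description. In the heavy chain locus, the region at chr12:114764219-114764726 was called in all MPP4 libraries, with 34 and 24 fragments in young and 13 and 15 in aged MPP4, and in CLP it had 14 and 21 fragments in young libraries and 7 in 1 of 2 aged libraries. Its neighbour at chr12:114657147-114657586 had 23 and 10 fragments in young MPP4, 13 in 1 aged MPP4 library, 7 and 17 in young CLP and 9 in 1 aged CLP library. In the T-cell receptor locus, the region at chr14:54111118-54111404 went the other way with age in MPP4, with no call in young and 14 and 12 fragments in aged libraries, and had 12 and 29 fragments in young and 14 and 20 in aged CLP. The region at chr14:53080545-53080847 had 11 and 18 fragments in young MPP4, no call in aged MPP4, 20 and 15 in young CLP and 18 and 26 in aged CLP. The age difference of these regions did not reach an adjusted p under 0.05 in the exact test of calls.

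Genes of the stem cell list also had regions in this set. The region nearest to Mycn, a MYC family gene (chr12:12821405-12821882, 119.0 kb away), was called in all 8 libraries at 23 and 16 fragments in young MPP4, 27 and 15 in aged MPP4, 15 and 23 in young CLP and 9 and 17 in aged CLP, without a call in MPP1 to MPP3. A region 3.9 kb from Itgam, an integrin gene of myeloid cells, had no call in young MPP4 and 18 and 11 fragments in aged MPP4, with 16 and 22 in young CLP and 22 in 1 of 2 aged CLP libraries.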
